A study of Homo sapiens with 9 samples.

Results

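SESN2, DDIT4 and TRIB3 are 3 genes that cells switch on under stress and whose products hold back growth signalling. They were chosen by name, with earlier results of these data known. Each is read by 1 probeset (a set of probes summarised into 1 value), and they are 3 of the 14884 named genes compared. RNA came from SMS-KCNR, an established human neuroblastoma line, so all samples share 1 genetic background. Cells were kept for 30 hours with the solvent DMSO, with 5 µM simvastatin, or with 5 µM simvastatin together with 2 mM mevalonate, and each condition was read on 3 one-channel arrays. Simvastatin is a statin, which blocks the enzyme that makes mevalonate, and added mevalonate enters the pathway below that block. The submitters call the 3 samples of a group independent without saying what separated them (day, passage or dish), so p-values measure the spread between these samples, which may be partly technical.

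The integrated stress response joins the 3 genes. Kinases that sense amino acid shortage, misfolded protein in the endoplasmic reticulum, viral RNA or haem shortage phosphorylate the translation factor eIF2. Most protein synthesis then slows while the mRNA of the transcription factor ATF4 is translated more, and ATF4 with partner proteins raises genes of amino acid supply together with SESN2, DDIT4 and TRIB3. SESN2, a sestrin, binds the GATOR2 complex and thereby keeps the growth kinase mTORC1 from its activating lysosomal platform when leucine is scarce. DDIT4, also called REDD1, acts through the TSC1-TSC2 complex, which shuts off RHEB, the direct activator of mTORC1. TRIB3 is a pseudokinase of the Tribbles family that binds AKT and hinders its activation, and it also feeds back on ATF4. Transcript level is only one layer of this control, and protein or phosphorylation was not measured here.

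Because the genes share a regulator, the 250 bases before each transcription start are shown to let the upstream sequences be compared. They were read from the RefSeq promoter table (GRCh38.p14, plus strand for all 3), and capitals mark matches to the CCAAT box, which reads ATTGG when it lies on the other strand, or to the core bound by hypoxia-inducible factors, ACGTG. Both strands were searched, and the matches do not overlap.
SESN2 (chr1:28259268-28259517): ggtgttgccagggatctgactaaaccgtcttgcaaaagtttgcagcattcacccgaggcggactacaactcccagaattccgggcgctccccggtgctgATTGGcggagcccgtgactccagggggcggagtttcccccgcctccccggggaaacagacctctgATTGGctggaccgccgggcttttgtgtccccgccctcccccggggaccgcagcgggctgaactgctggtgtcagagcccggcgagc
DDIT4 (chr10:72273674-72273923): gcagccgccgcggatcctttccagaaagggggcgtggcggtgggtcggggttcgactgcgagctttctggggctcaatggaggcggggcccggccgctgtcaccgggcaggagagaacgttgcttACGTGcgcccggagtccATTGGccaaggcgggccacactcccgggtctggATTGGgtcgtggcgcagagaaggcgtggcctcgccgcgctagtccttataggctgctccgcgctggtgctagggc
TRIB3 (chr20:381045-381294): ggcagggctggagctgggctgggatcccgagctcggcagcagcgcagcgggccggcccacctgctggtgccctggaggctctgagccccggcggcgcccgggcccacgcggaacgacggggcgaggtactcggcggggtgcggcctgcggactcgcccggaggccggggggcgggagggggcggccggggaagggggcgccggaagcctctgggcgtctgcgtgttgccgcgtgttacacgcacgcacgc

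SESN2 and DDIT4 each carried 2 CCAAT boxes in reverse orientation, at 151 to 147 and 86 to 82 bases before the start in SESN2 and at 108 to 104 and 75 to 71 in DDIT4. DDIT4 had in addition 1 ACGTG, at 125 to 121 bases before the start. Over all 35116 windows of the table, 32% held a CCAAT box on either strand and 18.5% held ACGTG. The C/EBP-ATF composite element, to which ATF4 binds with a C/EBP partner, was searched as TGATGNAA on both strands. It was in none of the 3 windows and in 3.14% of all windows, which says only that these letters are not in these stretches. The table lists 3 start sites of TRIB3, and the window shown precedes the first of them. RefSeq begins the gene 535 bases further upstream, so sequence before that earlier start is not covered. In the DDIT4 window, the antisense gene DDIT4-AS1 starts on the opposite strand 213 bases before the DDIT4 start, and its RNA is not analysed here. The motifs were chosen with the sequences in view, and a match is a description of letters, not of binding.

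Array quality bears on every value. Arrays of 1 group correlated across genes at r = 0.994 to 0.996, and simvastatin arrays correlated with DMSO arrays at 0.990 to 0.992. Medians of the arrays lay between 5.17 and 5.21 on the log2 scale, so 5.19, the median over all probesets, serves as a mark of a dim signal. Checked against the neuroblastoma label, all 8 measured genes of noradrenergic identity, among them PHOX2A, HAND2 and DBH, lay above that mark in each group. Their mean log2 value per array was 10.47 to 10.49 with DMSO, 10.07 to 10.09 with simvastatin and 10.41 to 10.46 with mevalonate added. With simvastatin 5 of the 8 fell (DBH, ISL1, CHGA, TH and GATA3), against 7.38% of all genes. None of 3 measured blood and endothelial markers lay above the mark in any group, and 4 glial markers, of which 3 lay above it, averaged 5.19 to 5.42 per array with 0 called (limma; 0 at an unadjusted p under 0.05 with simvastatin). Of 3 fibroblast and mesenchymal markers LUM (-1.14 ± 0.07) and DCN (-0.98 ± 0.06) fell with simvastatin (limma, adjusted p = 3.19e-05 and 2.96e-05), and the list's mean per array was 7.46 to 7.58 with DMSO, 6.71 to 6.86 with simvastatin and 7.20 to 7.25 with mevalonate added. The DCN value with simvastatin (4.81) lay below the mark, so the size of its fall is poorly determined. The part of these marker shifts in the results below was not tested. In RNA from a whole culture, fewer cells of a kind and less RNA per cell cannot be told apart.

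SESN2, the leucine-linked brake on mTORC1, had the largest point estimate of the 3 with simvastatin, though the intervals of all 3 overlap. Its log2 values were 6.12, 6.03 and 5.88 on DMSO arrays 1 to 3, 7.46, 7.22 and 6.97 on the simvastatin arrays, and 6.49, 6.12 and 6.19 with mevalonate added. Every simvastatin array lay above every array of the other groups, while the groups with DMSO and with mevalonate overlapped. Simvastatin raised SESN2 2.30-fold (95% confidence interval 1.85 to 2.87; log2 change 1.2 ± 0.14 SE, limma adjusted p = 0.000724). With mevalonate added it fell by 0.95 ± 0.14 against simvastatin alone (adjusted p = 0.00306). The value with mevalonate differed from DMSO by 0.26 ± 0.14, with an interval from -0.06 to 0.57 and an adjusted p of 0.554. SESN2 was also the most variable of the 3 under simvastatin, with an SD of 0.24 over the arrays.

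DDIT4, the brake that acts through TSC1-TSC2, rose as well and, with mevalonate, read between the other groups. DMSO arrays read 6.33, 6.32 and 6.41, simvastatin arrays 7.60, 7.49 and 7.31, and arrays with mevalonate 6.84, 6.84 and 6.93. The 3 groups did not overlap, with the arrays with mevalonate between the others. The values of arrays 1 and 2 with mevalonate were identical to the last deposited digit, so their own spread says little. Such repeats also occurred in other genes named below, among them STC2 (all 3 arrays with mevalonate), SESN1 and EIF2AK3. They crossed groups in SDF2L1 (5.94 on 6 arrays), EIF2AK4 (7.9 on 4 arrays) and GCN1 (8.47 on 3 arrays, 1 of each group). The small changes and errors given below for SDF2L1, EIF2AK4 and GCN1 therefore say little. The rise with simvastatin was 2.17-fold (1.93 to 2.44; log2 change 1.12 ± 0.07, limma adjusted p = 4.38e-05), and mevalonate lowered it by 0.60 ± 0.07 (adjusted p = 0.00139). Against DMSO, DDIT4 with simvastatin plus mevalonate stood 0.52 ± 0.07 higher on the log2 scale (interval 0.35 to 0.69, 3 of 3 arrays above every DMSO array), which just missed the threshold (adjusted p = 0.0587). The call was made with quantile normalization (adjusted p = 0.0473), among brighter genes only (0.0199), with a variance trend and robust moderation (0.00664) and without simvastatin replicate 3 (0.0344), and over all 17 alternatives the adjusted p ran from 0.00664 to 0.208.

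TRIB3, the AKT-binding pseudokinase, rose, and with mevalonate it read as with DMSO within its error. Its values were 6.65, 6.52 and 6.44 with DMSO, 7.41, 7.79 and 7.73 with simvastatin, and 6.70, 6.40 and 6.49 with simvastatin plus mevalonate. The simvastatin arrays stood apart, and the other groups overlapped. Simvastatin raised TRIB3 2.15-fold (1.79 to 2.59; log2 change 1.11 ± 0.12, limma adjusted p = 0.000472) and mevalonate lowered it by 1.11 ± 0.12 (adjusted p = 0.000562). The difference left against DMSO was -0.004 ± 0.12, with an interval from -0.27 to 0.26 (adjusted p = 0.995).

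**Figure D1:**
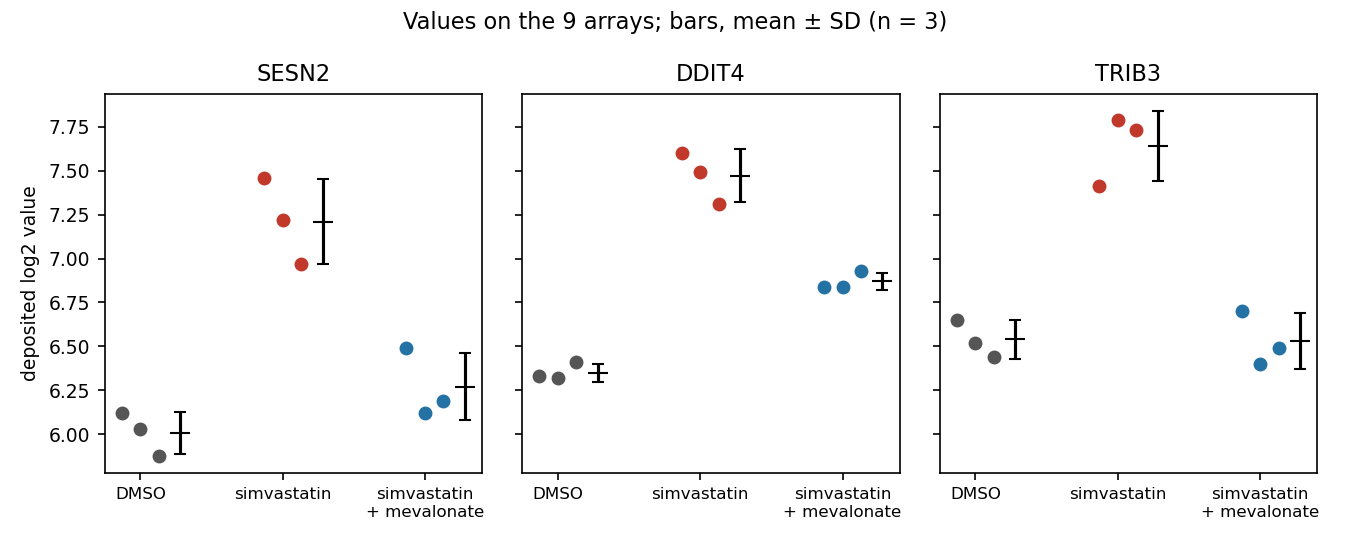
Deposited log2 values of SESN2, DDIT4 and TRIB3 on each of the 9 arrays, with points for arrays 1 to 3 of each group from left to right and bars for mean ± SD (n = 3). In each panel the 3 simvastatin arrays are the highest, and only for DDIT4 do the arrays with mevalonate (6.84 to 6.93) all lie above the DMSO arrays (6.32 to 6.41).

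Ranked by log2 change with simvastatin, SESN2, DDIT4 and TRIB3 stood at places 10, 12 and 13 from the top of 14884 genes. Because the genes were chosen with earlier results of these data known, all ranks given here are descriptions only. The simvastatin comparison with DMSO comes first. In that comparison 13.4% of all genes passed the threshold, 5.98% upward and 7.38% downward (890 and 1098 genes, which turned to 1048 and 1001 with quantile normalization), and 28.6% had groups that did not overlap, 13.9% with simvastatin higher and 14.7% with it lower. With mevalonate against simvastatin alone 11% passed, 5.72% downward and 5.31% upward, and 27.3% had groups that did not overlap, 13.7% downward and 13.6% upward. TRIB3 had the 14th lowest change there, SESN2 the 30th and DDIT4 the 149th. With mevalonate against DMSO, 0.0739% of genes passed, 0.0336% upward and 0.0403% downward. Groups did not overlap there for 16.5% of genes, 9.22% downward and 7.24% in the direction of DDIT4, whose change was 15th from the top. Both comparisons with the simvastatin group share its 3 arrays. An exact two-sided permutation test of each gene alone gave p = 0.1 for simvastatin against DMSO and for mevalonate against simvastatin in all 3 genes, the smallest p that 3 arrays against 3 allow.

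The share of the simvastatin rise that was left with mevalonate was 21.2% for SESN2, 46.6% for DDIT4 and -0.36% for TRIB3. With single arrays left out the share ran from 12.1% (without simvastatin plus mevalonate replicate 1) to 27.3% for SESN2, from 43.4% to 49.5% for DDIT4 and from -8.16% to 5.67% for TRIB3. The log2 ratio of each pair was taken within each array, a comparison chosen after the values were seen. DDIT4 over TRIB3 was -0.18 ± 0.15 (SD, n = 3) with DMSO, -0.17 ± 0.32 with simvastatin and 0.34 ± 0.18 with mevalonate added. The arrays with mevalonate (0.14 to 0.44) did not overlap the DMSO arrays (-0.33 to -0.03), a difference of 0.52. SESN2 over TRIB3 also differed without overlap between these groups, by 0.26, while SESN2 over DDIT4 overlapped there. None of the 9 ratio comparisons could pass a threshold of 0.05, since the exact permutation p was 0.1 at the lowest (0.3 adjusted over the 9).

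Of the relatives of the 3 genes, SESN1, a sestrin best known as a p53 target, fell where SESN2 rose. It read 6.65, 6.76 and 6.80 with DMSO, 6.45, 6.42 and 6.35 with simvastatin and 6.65, 6.65 and 6.67 with mevalonate added. All simvastatin arrays were the lowest, and SESN1 fell by 0.33 ± 0.05 (limma adjusted p = 0.00341). It rose by 0.25 ± 0.05 with mevalonate (adjusted p = 0.0165). That second call was lost without simvastatin replicate 3 (0.0514), without simvastatin plus mevalonate replicate 1 (0.052) or 3 (0.0588), with a replicate block (0.0518) and with all probesets in the fit (0.0625). SESN3, a sestrin controlled by FOXO factors, read 9.25 to 9.28 with DMSO, 9.23 to 9.34 with simvastatin and 9.08 to 9.16 with mevalonate added. Its change with simvastatin was 0.002 ± 0.05 (interval -0.10 to 0.11, adjusted p = 0.985).

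TRIB2, a Tribbles pseudokinase with roles in leukaemia and protein degradation, rose by 0.40 ± 0.05 with simvastatin (limma adjusted p = 0.000961) and fell by 0.64 ± 0.05 with mevalonate (adjusted p = 0.000113). Its arrays read 8.54, 8.57 and 8.57 with DMSO, 9, 8.94 and 8.95 with simvastatin and 8.32, 8.40 and 8.24 with mevalonate. With mevalonate all 3 thus lay below all DMSO arrays, as in 9.22% of all genes, and the change was not called (-0.24 ± 0.05, adjusted p = 0.113). A dimmer second probeset of TRIB2 changed by 0.04 ± 0.05 and -0.07 ± 0.05 in these comparisons (adjusted p over all 53617 probesets 0.761 and 0.626), so the probesets disagree. With the mean over both, the changes were 0.22 ± 0.04 and -0.36 ± 0.04 (adjusted p = 0.00597 and 0.000617). TRIB1, the Tribbles member that brings C/EBPα to the COP1 ubiquitin ligase, changed by 0.10 ± 0.06 with simvastatin (adjusted p = 0.387). DDIT4L, the paralogue of DDIT4, lay at 4.82 to 5.31 on all arrays, around the mark of a dim signal, and changed by -0.05 ± 0.09 (adjusted p = 0.787). Of the 5 relatives, 1 rose and 1 fell with simvastatin, against 5.98% and 7.38% of all genes. Their median log2 change was 0.002 against 0.01 over all genes.

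**Figure D2:**
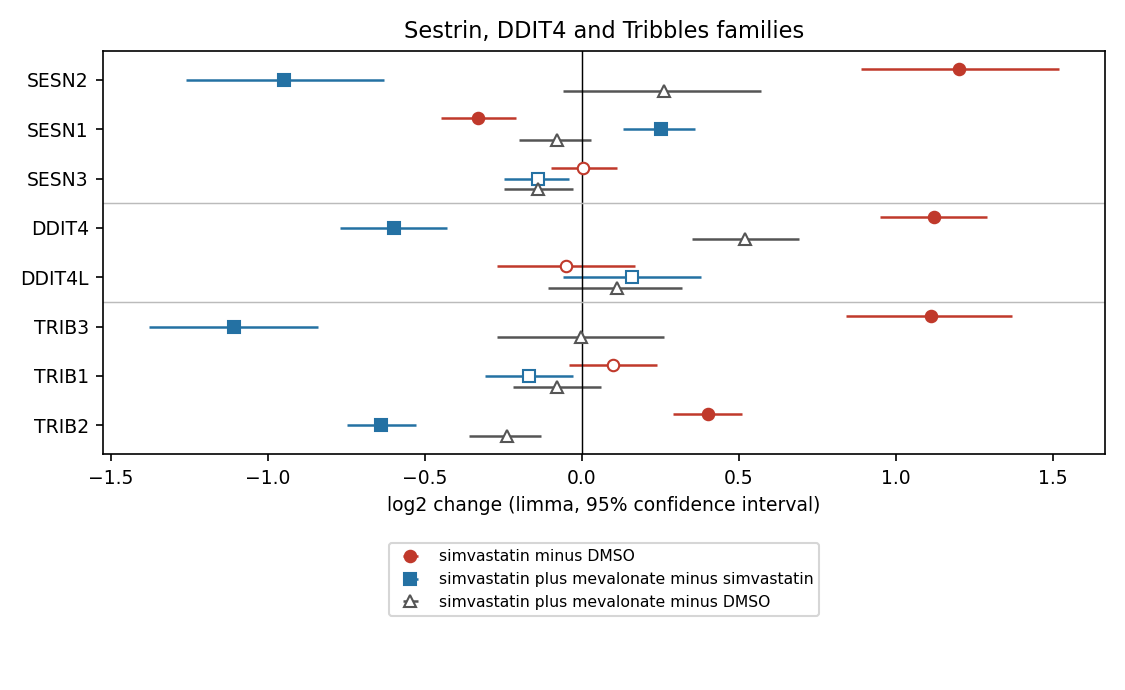
Log2 change with 95% confidence interval (limma) of the sestrin, DDIT4 and Tribbles genes in the 3 comparisons, filled where the adjusted p was under 0.05. SESN2, DDIT4 and TRIB3 lie between 1.11 and 1.2 with simvastatin, SESN1 lies at -0.33, and the interval for TRIB3 with mevalonate against DMSO is centred on -0.004.

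Upstream of the 3 genes, ATF4 mRNA itself was bright on the arrays. It read 10.10, 10.00 and 10.08 with DMSO, 10.19, 10.17 and 10.27 with simvastatin and 10.10, 10.20 and 10.09 with mevalonate. The change with simvastatin was 0.15 ± 0.05 (interval 0.04 to 0.27, limma adjusted p = 0.0948), with all simvastatin arrays above all DMSO arrays, as in 13.9% of all genes. With a variance trend and robust moderation it passed (adjusted p = 0.0198). Of 6 measured genes of the list of ATF4 and partner factors, 2 rose and 0 fell (limma, with 4 at an unadjusted p under 0.05). Over all genes 5.98% rose and 7.38% fell. The median of the list was 0.17. With quantile normalization 3 rose, and with the variance trend 4. ATF5, itself a stress-translated factor, rose by 0.82 ± 0.06, and ATF3, a stress-induced repressor and activator, by 0.54 ± 0.11 (adjusted p = 0.000109 and 0.012). Both fell with mevalonate, by 0.65 ± 0.06 and 0.56 ± 0.11. DDIT3, which encodes the pro-apoptotic partner CHOP, changed by 0.19 ± 0.12 (adjusted p = 0.398).

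Of 17 listed genes that sense stress or regulate eIF2, 6 were measured. Of these, 2 rose and 0 fell with simvastatin (5.98% and 7.38% of all genes), with a median of 0.06. EIF2AK3, which encodes the endoplasmic reticulum kinase PERK, read 7.54 on all DMSO arrays, 7.86, 8.07 and 7.90 with simvastatin and 7.31, 7.43 and 7.39 with mevalonate. It rose with simvastatin (0.41 ± 0.06, limma adjusted p = 0.00275) and fell by 0.57 ± 0.06 with mevalonate. EIF2AK2, the double-stranded RNA kinase, was the other, at 0.15 ± 0.04 (adjusted p = 0.0381), a call lost in 12 of the 17 alternatives, among them the omission of any DMSO or simvastatin array and of simvastatin plus mevalonate replicate 1 or 3. EIF2AK4, the amino acid sensor GCN2, changed by 0.07 ± 0.05 and its partner GCN1 by 0.05 ± 0.05 (adjusted p = 0.37 and 0.589).

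Other genes that ATF4 is known to control rose with the 3. Of 38 listed genes 22 were measured. Of these, 16 rose and 0 fell with simvastatin (limma, adjusted p under 0.05), against 5.98% and 7.38% of all genes. Their median log2 change was 0.42 against 0.01 over all genes. The count of rises was 14 to 16 under the 17 alternatives, and with the variance trend 1 gene, VLDLR, also fell (adjusted p = 0.0497). ATF5 and DDIT3 stand in this list as well as among the partner factors. ASNS, the asparagine synthetase, led at 1.19 ± 0.06 (adjusted p = 1.21e-05), followed by STC2, a secreted stanniocalcin, at 0.87 ± 0.07, ATF5, and AARS1, the alanyl-tRNA synthetase, at 0.77 ± 0.04. With mevalonate 14 of the 22 fell and 1 rose against simvastatin alone (5.72% and 5.31% of all genes). The median was -0.25, against 0.004 over all genes. ASNS fell by 0.63 ± 0.06, STC2 by 0.55 ± 0.07 and AARS1 by 0.50 ± 0.04. The rise was that of VLDLR, a lipoprotein receptor named after its value was seen, at 0.19 (adjusted p = 0.0392), and it was lost in 12 of 17 alternatives. Among them were the omission of DMSO replicate 1 or 3, of any simvastatin array or of simvastatin plus mevalonate replicate 1 or 2.

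Against DMSO, 0.0336% of all genes passed upward with mevalonate. Of the 22, 2 stayed higher, ASNS (0.57 ± 0.06, limma adjusted p = 0.0183) and PSAT1, the serine synthesis aminotransferase (0.44 ± 0.04, adjusted p = 0.0176), which was named after its value was seen. Both calls were lost in 9 of 17 alternatives, among them the omission of any single array of either group compared. Of the 22, 20 had a log2 change above 0, with a median of 0.17 against 0.0004 over all genes. At an unadjusted p under 0.05 (limma, either direction) were 15 of the 22, against 1635 of all 14884 genes. A gene not called is thus not shown to be back at its DMSO level. Of the rise of ASNS 47.4% was left (44.3% to 49.4% with single arrays left out), and of that of ATF5 20.3% (16.5% to 23.2%). These shares carry no test. The list was written with earlier results of these data known, so it is not independent evidence of a direction.

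**Figure D3:**
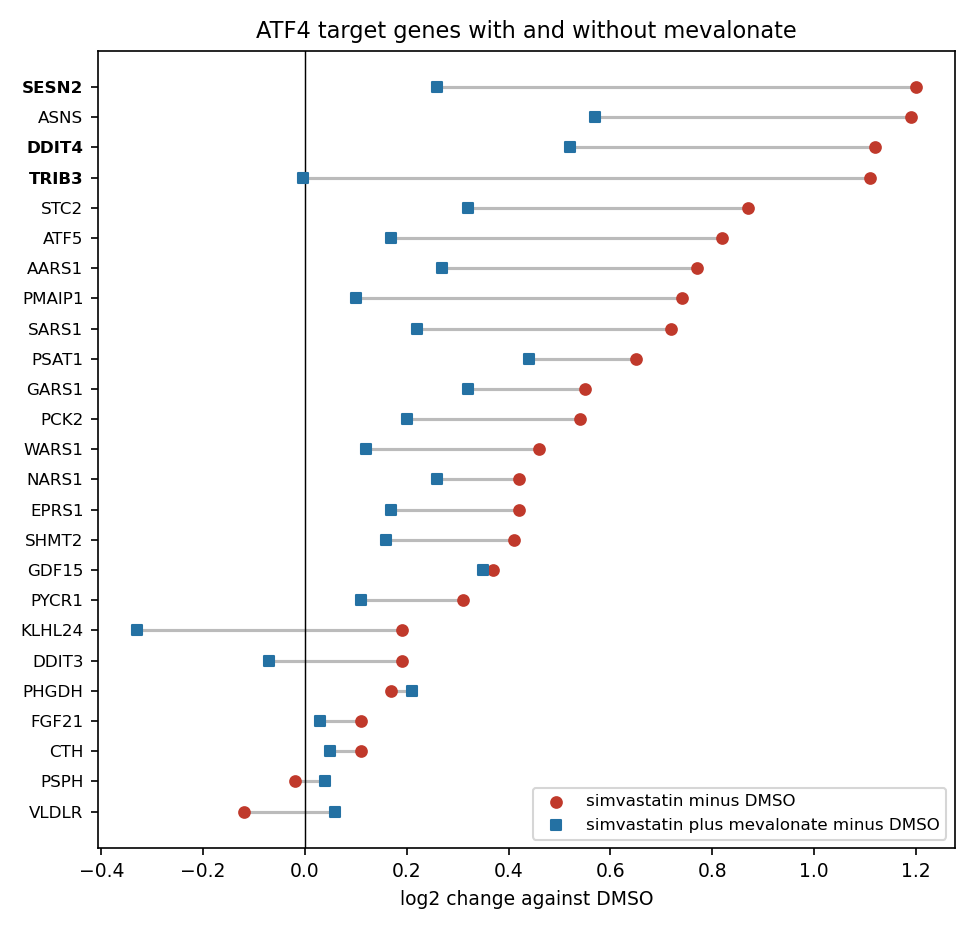
Log2 change against DMSO of SESN2, DDIT4, TRIB3 (bold) and the 22 other measured ATF4 target genes, as circles with simvastatin and squares with simvastatin plus mevalonate. TRIB3 goes from 1.11 to -0.004, while DDIT4 goes from 1.12 to 0.52 and ASNS from 1.19 to 0.57.

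No gene was among the 5 most similar in course over the 9 arrays to more than 1 of the 3. Similarity was the root mean square difference of log2 values after each gene was centred on its own mean, which weighs size as well as direction. DDIT4 was closest to ASNS (0.0967, where DDIT4 itself varied by 0.462), then STC2 (0.142), CARS1, the cysteinyl-tRNA synthetase (0.151), ACAT2 of sterol synthesis (0.158) and FASN, the fatty acid synthase (0.161). TRIB3, which varied by 0.539, was closest to DUSP5, a phosphatase of ERK kinases (0.127), EZR, which links membrane to actin (0.146), the AP-1 factor JUND (0.149), the small GTPase RHOB (0.151) and the actin-nucleating formin FMN1 (0.166).

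All 5 of the genes near TRIB3 rose with simvastatin and had log2 changes below 0 with mevalonate against DMSO, from -0.24 for FMN1 to -0.15 for DUSP5, of which none passed the threshold (limma, adjusted p from 0.0977 for FMN1 to 0.479). For the 5 near DDIT4 that change was above 0, from 0.25 for FASN to 0.60 for ACAT2, of which ASNS and ACAT2 passed (adjusted p = 0.0183 and 0.0176). The ACAT2 call was lost in 8 of 17 alternatives, among them without any DMSO array or without simvastatin plus mevalonate replicate 1 or 3. SESN2, which varied by 0.542, was closest to LONRF2 (0.163), ZYX, the focal adhesion protein zyxin (0.168), the neuropeptide precursor VGF (0.176), LONRF1 (0.192) and MVD of mevalonate use (0.193). DDIT4 stood 8th and TRIB3 15th in likeness to SESN2, whereas TRIB3 stood 223rd in likeness to DDIT4. With 3 groups of arrays, such likeness mostly reflects the 3 group means. The neighbours were picked on these same arrays, so the signs and sizes of their changes largely follow from the choice. Their adjusted p are therefore no separate evidence about the 3 genes.

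Of 4 measured mTORC1 subunits and assembly factors 1 rose and 1 fell with simvastatin (5.98% and 7.38% of all genes), with a median of -0.12. MTOR, the kinase itself, changed by -0.05 ± 0.04 (limma adjusted p = 0.463). DEPTOR, an inhibitory subunit, read 7.26, 7.29 and 7.22 with DMSO, 7.58, 7.74 and 7.67 with simvastatin and 7.29, 7.34 and 7.46 with mevalonate, and its simvastatin arrays stood above all others. It rose by 0.40 ± 0.06 (adjusted p = 0.00286) and fell by 0.30 ± 0.06 with mevalonate (adjusted p = 0.0151), where the call was lost without simvastatin replicate 2 (0.0506) or without simvastatin plus mevalonate replicate 1 (0.0582) or 2 (0.0547), and with all probesets in the fit (0.0535). TTI1, a chaperone of such kinases, fell by 0.27 ± 0.06 (adjusted p = 0.0226), a call lost without DMSO replicate 1 (0.073) or 3 (0.0787) or simvastatin replicate 1 (0.0688), with a replicate block (0.0559) and with all probesets in the fit (0.0707). AKT1S1, which encodes the mTORC1 inhibitor PRAS40, changed by -0.19 ± 0.08 (adjusted p = 0.165).

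Next came the machinery through which SESN2 and DDIT4 act. Of 19 measured genes of the GATOR, RAG and amino acid sensing list 0 rose and 1 fell (limma, with 4 at an unadjusted p under 0.05). Over all genes 5.98% rose and 7.38% fell. The median of the list was 0.01. The gene that fell was ITFG2 of the KICSTOR complex (-0.24 ± 0.06, adjusted p = 0.0322), a call lost in 8 of 17 alternatives, among them the omission of any DMSO array, of simvastatin replicate 2 or 3 or of simvastatin plus mevalonate replicate 1. RRAGD, a RAG GTPase, changed by 0.23 ± 0.07 (adjusted p = 0.0529), which passed in 6 of 17 alternatives, among them without DMSO replicate 3 (0.0406) or simvastatin replicate 2 (0.0259). It fell by 0.29 ± 0.07 with mevalonate (adjusted p = 0.024), lost with all probesets in the fit (0.0745) and without simvastatin replicate 1 or 3 or any simvastatin plus mevalonate array. RRAGC changed by 0.18 ± 0.08 and KICS2 by -0.15 ± 0.05 (adjusted p = 0.218 and 0.0941). The list of TSC, RHEB and AMPK genes was measured only for TSC1, TSC2, RHEB, RHEBL1 and the AMPK-activating kinase STK11, and no AMPK subunit was among the genes compared. Of these 5 genes 0 passed the test (limma, with 0 at an unadjusted p under 0.05), against 13.4% of all genes. TSC1 stood at -0.07 ± 0.05, RHEB at -0.02 ± 0.06, RHEBL1, a dim signal, at 0.07 ± 0.06 and STK11 at 0.04 ± 0.04.

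On the AKT side, which TRIB3 restrains, 2 of 9 measured genes rose and 0 fell (limma, with 3 at an unadjusted p under 0.05). Over all genes 5.98% rose and 7.38% fell. The median of the list was 0.09. IRS2, the insulin receptor substrate that feeds PI3K, read 7.09, 7.14 and 7.17 with DMSO, 7.72, 7.62 and 7.54 with simvastatin and 7.07, 6.98 and 7.01 with mevalonate. Its simvastatin arrays were the highest, it rose by 0.50 ± 0.06 (adjusted p = 0.000633) and it fell by 0.61 ± 0.06 with mevalonate (adjusted p = 0.000264). PHLPP2, an AKT phosphatase, rose by 0.23 ± 0.06 (adjusted p = 0.0412), a call lost in 11 of 17 alternatives, among them the omission of any DMSO array, of simvastatin replicate 1 or 3 or of simvastatin plus mevalonate replicate 1 or 3. IRS1 and PDPK1 changed by 0.17 ± 0.06 and 0.10 ± 0.04 (adjusted p = 0.0879 and 0.2).

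Among 12 measured effectors of mTORC1, 5 rose and 1 fell (5.98% and 7.38% of all genes), with a median of 0.19. The count of rises was 3 without DMSO replicate 2 or 3 or simvastatin replicate 3, and 2 with all probesets in the fit. EIF4EBP1, a translation repressor that mTORC1 inactivates and an ATF4 target in its own right, rose by 0.50 ± 0.06, while its paralogue EIF4EBP2 fell by 0.30 ± 0.04 (limma adjusted p = 0.000943 and 0.00136). Mevalonate lowered the first by 0.36 ± 0.06 and raised the second by 0.28 ± 0.04 (adjusted p = 0.00633 and 0.00258). LPIN1, a phosphatidate phosphatase held in the cytoplasm by mTORC1, rose by 0.39 ± 0.06. PDCD4 and EIF4B, which act on translation initiation and were named after their values were seen, rose by 0.20 ± 0.04 and 0.17 ± 0.04 (adjusted p = 0.0116 and 0.0344). TFEB, the lysosome regulator, rose by 0.64 ± 0.16 (adjusted p = 0.0306). Its means of 5.06 with DMSO and 4.89 with mevalonate lay below the mark of a dim signal, so the size is poorly determined. The call was lost with all probesets in the fit and when either of DMSO arrays 2 and 3 or of simvastatin arrays 1 and 3 was left out (0.0744 to 0.103).

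Of 6 measured binding partners and turnover factors 3 rose and 2 fell (5.98% and 7.38% of all genes). TXNIP, which forms a complex with DDIT4, fell by 0.52 ± 0.06 (limma adjusted p = 0.0008), and its change with mevalonate against simvastatin was 0.10 ± 0.06 (adjusted p = 0.366). DET1, which joins COP1 in a ubiquitin ligase, fell by 0.23 ± 0.04. CUL4A, a scaffold of ubiquitin ligases, rose by 0.33 ± 0.07, and SQSTM1, the autophagy receptor that binds sestrins, by 0.29 ± 0.07. KEAP1, the oxidative stress sensor, named after its value was seen, rose by 0.22 ± 0.06 (adjusted p = 0.0483). CUL4A was lost without DMSO replicate 2 (0.0707) or simvastatin replicate 1 (0.0655) or 2 (0.0642), and with all probesets in the fit (0.0616). SQSTM1 was lost when either of DMSO arrays 1 and 2 or of simvastatin arrays 2 and 3 was left out (0.063 to 0.0833), with all probesets in the fit (0.0721), with only the groups compared (0.0605) and with a replicate block (0.0613). As a result, 0 of the 3 rises were called without DMSO replicate 2 or simvastatin replicate 2 and with all probesets in the fit. The count was 1 without DMSO replicate 1 or simvastatin replicate 1 or 3, with only the groups compared and with a replicate block.

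**Figure D4:**
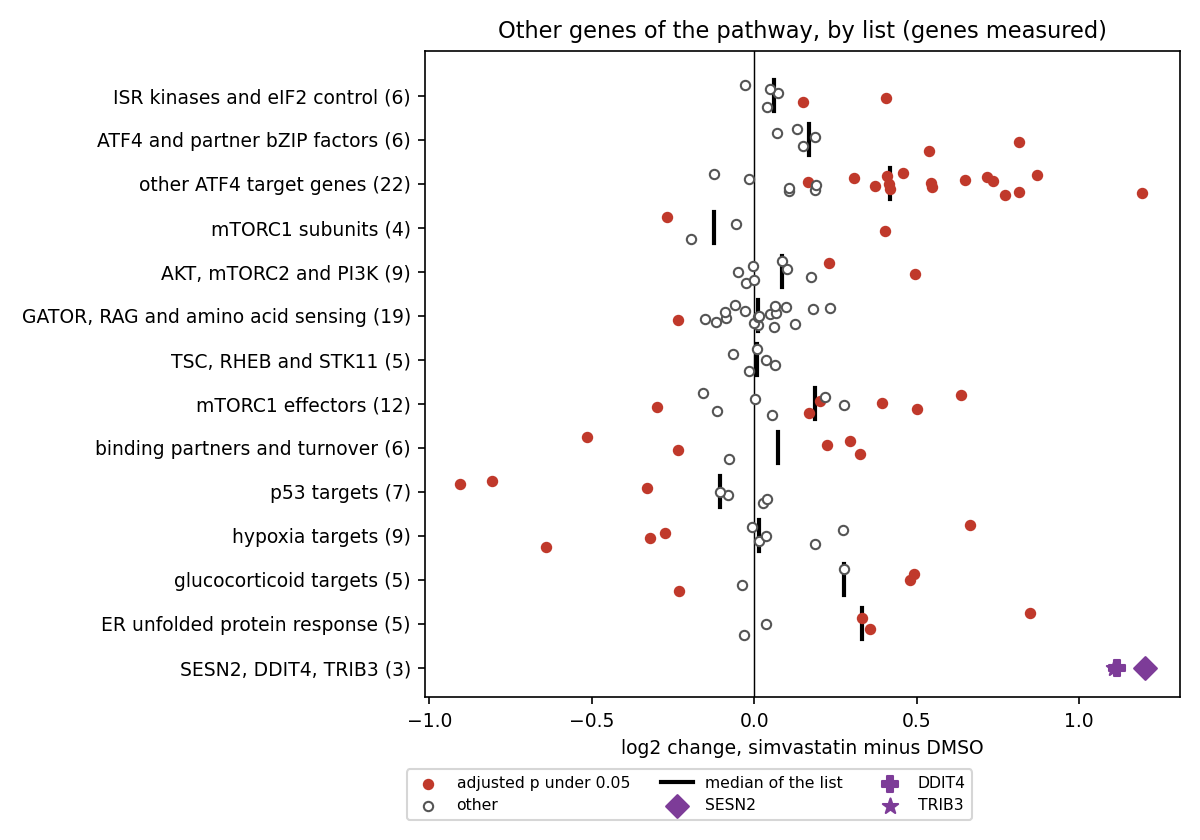
Log2 change with simvastatin against DMSO of each measured gene of 13 lists, filled where the adjusted p was under 0.05, with a bar at the list's median and with SESN2, DDIT4 and TRIB3 on the bottom line. The 22 other ATF4 targets have their median at 0.42, while the medians of the GATOR and RAG list and of the 5 measured TSC, RHEB and STK11 genes lie at 0.01.

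Since each of the 3 genes also answers to other regulators, the targets of those regulators were examined. SESN2 is a p53 target. Of 16 p53 targets listed 7 were measured, of which 0 rose and 3 fell with simvastatin (limma, with 3 at an unadjusted p under 0.05). Over all genes 5.98% rose and 7.38% fell. The median of the list was -0.11. TP53I3 fell by 0.91 ± 0.07 and TP53INP1, a stress protein of autophagy, by 0.81 ± 0.08 (adjusted p = 7.96e-05 and 0.000475), and SESN1 was the third. With mevalonate against simvastatin alone, these 3 of the 7 rose and 0 fell, against 5.31% and 5.72% of all genes. TP53I3 rose by 0.76 ± 0.07 and TP53INP1 by 0.45 ± 0.08, and the SESN1 call was lost in the alternatives given above. Both comparisons share the simvastatin arrays. RRM2B changed by -0.11 ± 0.07 (adjusted p = 0.423).

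DDIT4 responds to hypoxia, and of 9 measured hypoxia targets 1 rose and 3 fell (5.98% and 7.38% of all genes), with a median of 0.02. VEGFA, an angiogenic factor that ATF4 also induces, rose by 0.66 ± 0.09, while ADM fell by 0.64 ± 0.08, EGLN3 by 0.32 ± 0.05 and LDHA by 0.27 ± 0.07 (limma adjusted p = 0.0017, 0.00103, 0.00511 and 0.0363). The LDHA call was lost in 10 of 17 alternatives, among them without DMSO replicate 1 or 3, any simvastatin array or simvastatin plus mevalonate replicate 2 or 3, and 2 hypoxia targets rose without simvastatin replicate 3. DDIT4 is induced by glucocorticoids as well, and of 5 measured targets 2 rose and 1 fell (5.98% and 7.38% of all genes), with a median of 0.28. PER1, a clock repressor, rose by 0.49 ± 0.08 and KLF9 by 0.48 ± 0.10 (adjusted p = 0.00584 and 0.0136), KLF9 not without DMSO replicate 3 (0.05) or with only the groups compared (0.0515). DUSP1, a MAP kinase phosphatase, fell by 0.23 ± 0.06 with an adjusted p just under the threshold (0.05 when rounded), a call lost in 13 of 17 alternatives, including every single-array omission but that of simvastatin replicate 1. ZBTB16, a dim signal (4.61 with DMSO), changed by 0.28 ± 0.12 (adjusted p = 0.197). The median of the glucocorticoid list is the change of this dim gene, so it says little about the list.

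TRIB3 is induced with the unfolded protein response. Of 12 listed genes outside its ATF4 arm 5 were measured. HSPA5, HSP90B1, DNAJB9, HERPUD1, EDEM1, PDIA4 and DNAJB11 were not among the genes compared. Of the 5, 3 rose and 0 fell (5.98% and 7.38% of all genes), with a median of 0.33. XBP1, the factor spliced by the sensor IRE1, rose by 0.85 ± 0.06 and fell by 0.75 ± 0.06 with mevalonate (limma adjusted p = 9.04e-05 and 0.000206). SEL1L, of the degradation channel, rose by 0.33 ± 0.06 and the chaperone HYOU1 by 0.36 ± 0.04 (adjusted p = 0.00895 and 0.000668). The HYOU1 call was lost with the mean over its probesets (0.0668). SDF2L1, a chaperone partner, changed by 0.04 ± 0.04 (adjusted p = 0.646).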

How the data were processed

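The authors deposited log2 values, 1 per probeset and array. The log2 scale was read from the values. GCRMA and HOMER appear among the tools in the submitters' processing notes, and their versions, settings and a genome build are not given in the sources used here. Array medians were nearly equal, so a shift of all genes would not show. Arrays carry no counts, and their number limits the precision.

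Of 53617 probesets, 16098 had 1 gene symbol, and the brightest probeset stood for each of 14884 genes. A listed gene without such a probeset was not among the genes compared and counts as not measured. R 4.3.3 and limma 3.58.1 (lmFit, eBayes) fitted all 9 arrays with 3 group means (6 residual degrees of freedom), adjusted by Benjamini-Hochberg over 14884 genes per comparison, threshold 0.05. "Rose" and "fell" mean past it, as do counts of genes that changed. "Changed by" with a value gives a size only, whether or not the gene passed. Errors of changes are limma standard errors, and folds are 2 to the power of the log2 change. On simulated arrays for simvastatin against DMSO (14884 genes), 71.2% of genes changed by 0.5 were called, 94% of those changed by 1, and 0.0749% of unchanged genes. Over 5 simulated sets, 250, 500 and 250 genes were changed by 0.5, 1 and 2, against 73420 left unchanged. That share is smaller than the 13.4% called in the data, and the adjustment depends on it. The percentages are thus only a rough guide. The members and lists were chosen with earlier results of these data known. Each result was refitted under 17 alternatives (normalization, filter, probeset rule, model, replicate block, each array left out). Named genes are the 3 members, their relatives, ATF4, the 4 largest changes per list and the 5 genes most like each member. Some genes were named outside this rule, among them the markers PHOX2A, HAND2 and GATA3 and the genes said above to be named after their values were seen. Promoters and names come from RefSeq tables (GRCh38.p14).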

Additional observations from a re-analysis of the deposited data

How the results depend on the processing

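The calls of SESN2, DDIT4 and TRIB3 for simvastatin against DMSO and for mevalonate against simvastatin held under all 17 alternatives, with adjusted p (limma) up to 0.0167. For DDIT4 with mevalonate against DMSO, the change was called at 0.53 with quantile normalization and at 0.52 among genes above the median of all probesets and with a variance trend and robust moderation, and it was 0.49 to 0.55 when single arrays were left out. Over all genes, 1177 changed with simvastatin and 922 with mevalonate against simvastatin when all probesets entered the fit, in place of 1988 and 1642. With mevalonate against DMSO, 11 genes changed (1635 at an unadjusted p under 0.05), 105 among brighter genes, 223 with the variance trend, 1 with all probesets, and 0 with only the groups compared (1671 unadjusted) or a replicate block (1505 unadjusted). Single-array omissions gave 0 to 12. Of the other ATF4 targets 2 stayed higher (15 changed at an unadjusted p under 0.05), and 6 did among brighter genes. With all probesets, only the groups compared or the replicate block 0 did (14, 15 and 14 at an unadjusted p under 0.05). With the variance trend 10 changed (9 up, 1 down), and 0 to 2 stayed higher without single arrays. Over all genes, same-numbered arrays shared little deviation (r from -0.081 to 0.05), and the block changed no call of the 3 genes. Of the 3 genes only SESN2 had array 1 the highest of each group, an order also seen in TFEB, KLF9 and RRAGC. The block lowered the SE of the SESN2 change with simvastatin from 0.14 to 0.08. For DDIT4 and TRIB3 the SE was 0.08 and 0.13 with the block, against 0.07 and 0.12. Whether the SESN2 arrays were paired by number was not tested. Why the counts with mevalonate against DMSO moved was not tested. Changes of dim genes such as DDIT4L, near the median of all probesets, are limited by signal over background.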
